A study of Caenorhabditis elegans with 5 samples.

Results

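A set of 210 genes of the nematode Caenorhabditis elegans had less RNA in animals with a germline tumour than in control animals, and more RNA in fasted than in fed tumour-bearing animals. The genes were taken from 8925 genes measured in both comparisons, of 45461 gene identifiers listed in all. They made up 2.35% of the measured genes. RNA came from whole animals kept at 20 °C, in 5 libraries with 1 library per group. Each library pooled ca. 3000 animals collected in 2 experiments, so no value has a replicate and the spread between experiments cannot be seen. The fasted group was treated with gld-1 RNAi and moved on day 2 of adulthood to plates without bacteria for 48 h, and is labelled day 4. The fed group was treated with gld-1 RNAi, moved on day 2 to plates seeded with L4440 bacteria for 48 h, and is also labelled day 4. The gld-1 RNAi group was on gld-1 RNAi bacteria and was collected on day 3. The control group was kept on L4440 bacteria, which hold an RNAi vector without insert, until day 3. The young adult group was kept on the same bacteria and collected on day 1. No strain, mutation or transgene is named in the labels. They do not settle when the RNAi began, since they place L1 larvae on RNAi food but also describe a transfer to it after day 1 of adulthood.

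GLD-1 is an RNA-binding protein of the germline that holds maternal mRNAs untranslated while germ cells pass through meiosis. Without it, cells on the way to becoming oocytes go back to dividing by mitosis, and the gonad fills with a tumour. In a normal adult hermaphrodite the maturing germ cells load the oocyte with RNA for the embryo, and fertilized embryos in the uterus add RNA of their own. The X chromosome is known to be largely silent in mitotic and early meiotic germ cells and to be transcribed late in oogenesis. Starved adults draw on stored fat and glycogen, and the intestine, which is the site of digestion and of fat storage, changes its gene expression with food.

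A gene was a member when it was at least 1.5-fold lower in gld-1 RNAi than in the control and at least 1.5-fold higher in fasted than in fed animals. Folds were taken on the authors' normalized reads plus 1, and a mean of at least 50 was required in both tables. Genes named egg, cpg, puf, oma, mex, pos, pie, cyb, cdk or mcm, and rme-2, chs-1 and cbd-1, were left out by name. The members were thus selected on these 2 folds, which are given as a description with no test. In the gld-1 RNAi library 1493 of the 8925 genes were lower than in the control, and in the fasted library 352 were higher than in the fed library. Both held for 227 genes, which is 64.5% of the 352 and 15.2% of the 1493. Over all genes measured in each table alone, 19.3% were at least 1.5-fold lower in gld-1 RNAi than in the control, and 4.08% were at least 1.5-fold higher in fasted than in fed animals. Of the 227 genes, 17 were left out by name. Of the 210 members, 206 are annotated as protein coding, and 106 have a gene name while the others carry a sequence identifier alone. C06A1.4 and F02H6.4 are annotated as pseudogenes, F19C6.8 as an antisense RNA, and R13A1.7 had no match in the annotation. Both 95% counting intervals excluded 0 for all 210 members. These intervals are of the same 2 folds that chose the members, so this follows in large part from the rule. For 48.095% of the members both intervals lay wholly past the 1.5-fold limit, so the others depend on where the limit was set.

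**Figure D1:**
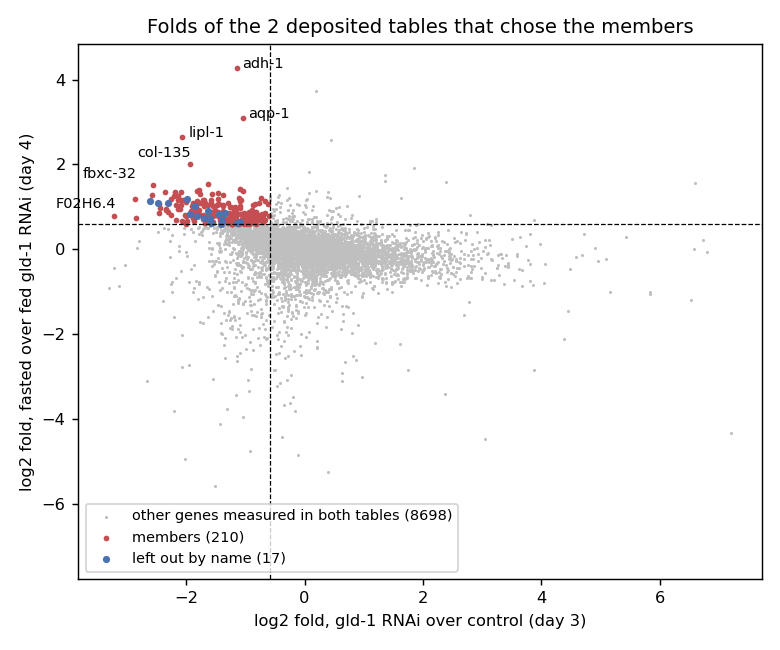
Log2 fold of fasted over fed (vertical axis) against log2 fold of gld-1 RNAi over control (horizontal axis) for each gene measured in both tables, with the 1.5-fold limits as dashed lines. The 210 members (red) and the 17 genes left out by name (blue) fill the upper left corner, where adh-1 at 4.27, aqp-1 at 3.09 and lipl-1 at 2.64 on the vertical axis stand above the other members.

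The RNAi target was measured first as a check of the labels. gld-1 had 1592 normalized reads in the fasted, 3061 in the fed, 1994 in the gld-1 RNAi, 20340 in the control and 17593 in the young adult library. It was low in the 3 libraries of RNAi-treated animals, with a log2 fold of -3.30 for gld-1 RNAi over control. Within those 3 libraries it was lower in fasted than in fed animals by a log2 fold of -0.92, opposite to the members. Gene totals were 13803289 reads for fasted animals, 15426039 for young adults, and between 27469984 and 27598482 in the other 3 libraries. Ribosomal RNA took 25.4% to 27.8% of the reads in the 4 libraries of day 3 and day 4 and 3.51% in the young adult library. Levels below are recovered reads divided by size factors over all 5 libraries. They differ from the scale of each deposited pair by 0.11 or less on the log2 scale, and they are not per length unless stated.

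The members ran in a common order across the libraries. In 191 of 210 the level was highest in the control, then fasted, then gld-1 RNAi and lowest in the fed library. Relative to the control, the median member stood at 49.3% in the fasted (quartiles 38.1% and 63.03%), 28.4% in the fed (quartiles 19.7% and 37.3%) and 37.4% in the gld-1 RNAi library (quartiles 28.1% and 47.7%). Together the 210 genes took 1.57% of the reads outside ribosomal RNA in the fasted, 0.875% in the fed, 1.22% in the gld-1 RNAi, 3.27% in the control and 1.60% in the young adult library. The fasted level thus lay above the fed level and still below the control level for most members. At least 1.5-fold lower in fasted animals than in the control were 167 of 210 members, against 23.6% of all genes, and 4 were at least 1.5-fold higher, against 14.5% of all genes. In the fed library 208 of 210 members were at least 1.5-fold below the control, against 25% of all genes. The rule chose genes that are high in the control and low in the fed library, so these counts follow in large part from the selection and show nothing apart from it. RNA of whole animals cannot tell fewer cells of a type from less RNA per cell. Scaled to the upper quartile of each library's own genes, 51 genes met the rule instead of 210, and scaled to the upper quartile of genes with a read in either library of a pair, 217 did.

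**Figure D2:**
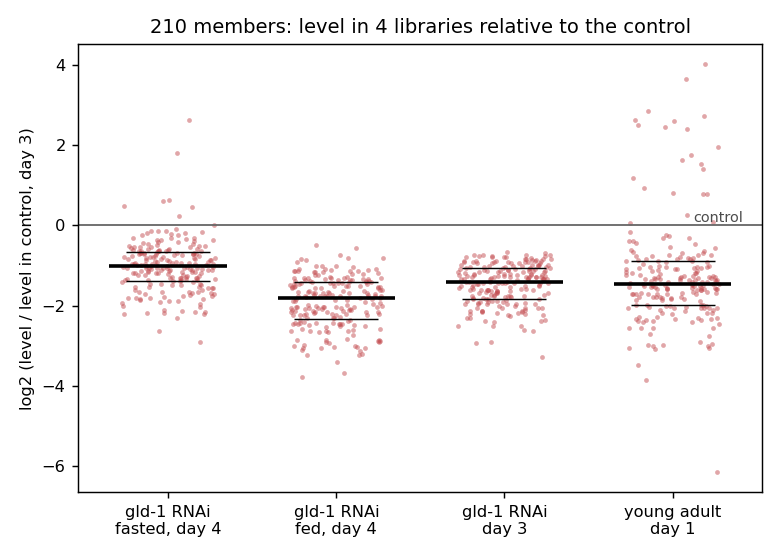
Log2 of the level over the level in the control library for the 210 members in the other 4 libraries (points), with the median (thick line) and quartiles (thin lines). The fed library has the lowest median and the fasted library the highest of the 3 RNAi libraries, and a small set of members lies far above the control in the young adult library.

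For most members the day 3 library of gld-1 RNAi stood between both libraries of day 4. Fed animals had a median log2 fold over gld-1 RNAi of -0.46, beside -0.02 for all genes. Of 209 members measured there, 58 were at least 1.5-fold lower in the fed library (2.2% of all genes) and 0 were higher (1.48% of all genes). Fasted animals had a median log2 fold over gld-1 RNAi of 0.34, beside 0.01 for all genes. In 36 members the fasted library was higher by 1.5-fold or more (1.74% of all genes), 0 were lower (7.41% of all genes), and 174 lay within 1.5-fold of the gld-1 RNAi library. With upper quartiles of each library's own genes as the scale, this median was -0.01 and that of all genes -0.33. In 132 members the fed library was further from the gld-1 RNAi library than the fasted library was. These comparisons share libraries with those that chose the genes, so they are no separate evidence, and age and plate differ from the day 3 library in both.

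Genes that act on maternal RNA and in the early germline formed the first recognisable group. Of a list of 41 measured regulators of RNA in oocytes and embryos, 18 were lower in gld-1 RNAi and 6 were members. Of all genes measured in both tables, a share of 16.7% was lower in gld-1 RNAi, 3.94% higher in fasted animals and 2.35% members, which is the background for this list and the lists below. meg-1, meg-3 and meg-4 encode proteins of the embryonic P granules, the germline granules that sort RNA into the germ lineage. meg-3 had 1311 normalized reads in the fasted, 647 in the fed, 975 in the gld-1 RNAi, 2640.0 in the control and 738 in the young adult library. meg-1 had 2768 normalized reads in the fasted, 1702 in the fed, 2327 in the gld-1 RNAi, 6192 in the control and 1783 in the young adult library, and meg-4 had 834 normalized reads in the fasted, 474 in the fed, 704 in the gld-1 RNAi, 1757 in the control and 384 in the young adult library. In all 3 genes the control was highest of the 5 libraries, and meg-2 of the same family was measured but was no member. nos-2, a Nanos-family translational repressor of primordial germ cells, had 777 normalized reads in the fasted, 397 in the fed, 639.6 in the gld-1 RNAi, 2367 in the control and 802 in the young adult library. Its log2 fold was -1.83 for gld-1 RNAi over control (95% counting interval -1.95 to -1.72) and 0.99 for fasted over fed (0.81 to 1.18). spn-4, an RNA-binding protein that controls translation in the early embryo, had 7059.9 normalized reads in the fasted, 4453 in the fed, 5841 in the gld-1 RNAi, 19412 in the control and 7708 in the young adult library. sygl-1, a target of Notch signalling that keeps germline stem cells, was less far below the control in fasted animals, with 1827 normalized reads in the fasted, 1230.0 in the fed, 1319 in the gld-1 RNAi, 2978 in the control and 1004 in the young adult library. nos-2, spn-4 and sygl-1 were also the 3 members on a list of 21 measured mRNAs held to be bound by GLD-1. Of these 21, 12 were lower in gld-1 RNAi and 3 higher in fasted animals. That list was written from general knowledge, and binding was not measured here.

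A few members act in the egg's second meiotic division, on its spindle and in its shell, although the lists of meiosis and synapsis and of polarity and spindle in the embryo held 0 members of 48 and of 82. memi-1, memi-2 and memi-3, which act at the second meiotic division of the egg, were all 3 members of the 3 measured. memi-3 had 2011 normalized reads in the fasted, 1149 in the fed, 1657 in the gld-1 RNAi, 3577 in the control and 1733 in the young adult library. For memi-1 the log2 folds were -0.87 for gld-1 RNAi over control and 0.64 for fasted over fed, and for memi-2 they were -0.99 and 0.80. These genes resemble each other, and the sources used here do not say how reads shared by near-identical copies were counted. mesp-1, a protein of the meiotic spindle, had 2153 normalized reads in the fasted, 1019 in the fed, 1802 in the gld-1 RNAi, 7506 in the control and 2699.7 in the young adult library. Its fasted level was 28.7% of the control level, and the counting interval of its fasted over fed fold was 0.99 to 1.22. rmd-1, a microtubule-associated protein, had 2145 normalized reads in the fasted, 1199 in the fed, 1691 in the gld-1 RNAi, 9634 in the control and 3820.1 in the young adult library, with a log2 fold of -2.46 for gld-1 RNAi over control.

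Of 23 measured genes of the eggshell, its permeability barrier and egg activation, 15 were lower in gld-1 RNAi and 3 were members. The members were rmd-1, sqv-4 and cyp-31A2. Of these, rmd-1 is the microtubule-associated protein described above, so its place on this list is open to doubt. sqv-4 makes the sugar nucleotide UDP-glucuronic acid, a building block of chondroitin, and had 1322 normalized reads in the fasted, 771 in the fed, 1160.4 in the gld-1 RNAi, 4351 in the control and 2506 in the young adult library. cyp-31A2, a cytochrome P450 needed for the lipid layer of the eggshell, had 986 normalized reads in the fasted, 625 in the fed, 881 in the gld-1 RNAi, 2467 in the control and 1483 in the young adult library. Its relative cyp-31A5 had 627 normalized reads in the fasted, 367 in the fed, 488 in the gld-1 RNAi, 1500.0 in the control and 720.0 in the young adult library, and its reads may be shared with near-identical copies. Further members act in the same sugar pathways and were picked after their values were seen. gfat-1 and gfat-2 encode the enzyme that opens the hexosamine pathway, from which chitin is made. gfat-2 had 5086 normalized reads in the fasted, 2521 in the fed, 4045 in the gld-1 RNAi, 18836 in the control and 8863 in the young adult library. gfat-1 had 5939 normalized reads in the fasted, 3856 in the fed, 4661 in the gld-1 RNAi, 11873 in the control and 5601 in the young adult library, a smaller difference between gld-1 RNAi and control than in gfat-2. sqv-1, which converts UDP-glucuronic acid to UDP-xylose, had 1646 normalized reads in the fasted, 1070.5 in the fed, 1497 in the gld-1 RNAi, 3361 in the control and 1636 in the young adult library.

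Members with stores and secreted proteins included some of the most abundant RNAs of the set. pygl-1, the glycogen phosphorylase that releases glucose from glycogen, had 11375 normalized reads in the fasted, 6959 in the fed, 8789.9 in the gld-1 RNAi, 33823 in the control and 13598 in the young adult library. gyg-2, a glycogenin that starts glycogen chains, was picked after its values were seen and had 3163 normalized reads in the fasted, 1717 in the fed, 2493 in the gld-1 RNAi, 9228 in the control and 3619.9 in the young adult library. pygl-1 and lipl-1 were the 2 members among 73 measured genes of lipid and fasting fuel metabolism, of which 25 were lower in gld-1 RNAi and 6 higher in fasted animals. lea-1, a relative of plant proteins that protect dry seeds, had 21742 normalized reads in the fasted, 11574 in the fed, 16135 in the gld-1 RNAi, 31007 in the control and 3641 in the young adult library. It was at 70.1% of the control level in fasted animals, and its young adult level was far below the other 4 libraries. sip-1, a small heat shock protein of oocytes and embryos, was picked after its values were seen and had 33522 normalized reads in the fasted, 19487 in the fed, 24189 in the gld-1 RNAi, 58000.5 in the control and 11450.4 in the young adult library. Of 31 measured C-type lectin genes 5 were members, and 19 were lower in gld-1 RNAi. Among them clec-87 had 9489 normalized reads in the fasted, 5483 in the fed, 7624 in the gld-1 RNAi, 31993 in the control and 11513 in the young adult library, and clec-91 had 1146 normalized reads in the fasted, 634 in the fed, 1027 in the gld-1 RNAi, 5305 in the control and 1817 in the young adult library. The fasted level was 29.7% of the control in clec-87 and 21.6% in clec-91, among the lower values of the set. mrp-4, an ABC transporter, had 5078 normalized reads in the fasted, 2428 in the fed, 3927 in the gld-1 RNAi, 9931 in the control and 3548 in the young adult library.

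Per 1000 bases of exon, and in the control library, sip-1 stood highest of the members with 90626 normalized reads per kb, before clec-87 with 33326, W05F2.3 with 15486 and spn-4 with 12746. On this scale the median member stood at percentile 37.5 of all measured genes in the fasted, 24.7 in the fed, 30.7 in the gld-1 RNAi, 54.5 in the control and 35.9 in the young adult library.

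Nuclear factors formed a group of lower level. Of 5 measured T-box genes, which encode transcription factors of the embryo, 3 were members and 4 were lower in gld-1 RNAi. tbx-9 had 248 normalized reads in the fasted, 118 in the fed, 192 in the gld-1 RNAi, 645 in the control and 149 in the young adult library. tbx-36 had 125 normalized reads in the fasted, 48.17 in the fed, 93.6 in the gld-1 RNAi, 342 in the control and 128 in the young adult library, and tbx-33 had 109 normalized reads in the fasted, 67.3 in the fed, 95.9 in the gld-1 RNAi, 317 in the control and 59.7 in the young adult library. tbx-9, ref-1 and flh-3 were the 3 members among 22 measured genes on a list of early embryo genes. Of these 22, 10 were lower in gld-1 RNAi and 4 higher in fasted animals. The list may also hold maternal RNAs, since pal-1 stands on the list of mRNAs held to be bound by GLD-1 too. ref-1, a basic helix-loop-helix factor in the Notch pathway, had 119.9 normalized reads in the fasted, 54.8 in the fed, 70.6 in the gld-1 RNAi, 156 in the control and 26.5 in the young adult library. flh-3, a FLYWCH zinc finger protein that represses microRNA genes in the embryo, had 393 normalized reads in the fasted, 265 in the fed, 341 in the gld-1 RNAi, 831 in the control and 182 in the young adult library. Of 19 measured homeobox genes of the ceh family 3 were members, and ceh-49, of the ONECUT class, had 209 normalized reads in the fasted, 80.6 in the fed, 123 in the gld-1 RNAi, 441 in the control and 170.3 in the young adult library. Of 69 measured nuclear hormone receptors 3 were members, nhr-12, nhr-13 and nhr-71, with log2 folds of fasted over fed of 0.89, 0.84 and 0.80. The share of nuclear hormone receptors, 4.35%, was near the 2.35% of all genes.

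Chromatin genes gave 2 members of 60 measured, hpl-1 and lsd-1, and 7 of the 60 were lower in gld-1 RNAi. The share of members, 3.33%, was near the 2.35% of all genes. hpl-1, a heterochromatin protein of the HP1 family, had 131 normalized reads in the fasted, 73.1 in the fed, 85.9 in the gld-1 RNAi, 162 in the control and 70.8 in the young adult library. lsd-1, a homologue of the lysine demethylases, had 516 normalized reads in the fasted, 316 in the fed, 419.5 in the gld-1 RNAi, 793 in the control and 159 in the young adult library. nrde-3, an Argonaute that carries small RNAs into the nucleus, was the 1 member among 50 measured genes of germ granules and small RNA, and had 1130.0 normalized reads in the fasted, 767 in the fed, 909.6 in the gld-1 RNAi, 2208 in the control and 422 in the young adult library. hpl-1, lsd-1 and nrde-3 lie on chromosome X.

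**Figure D3:**
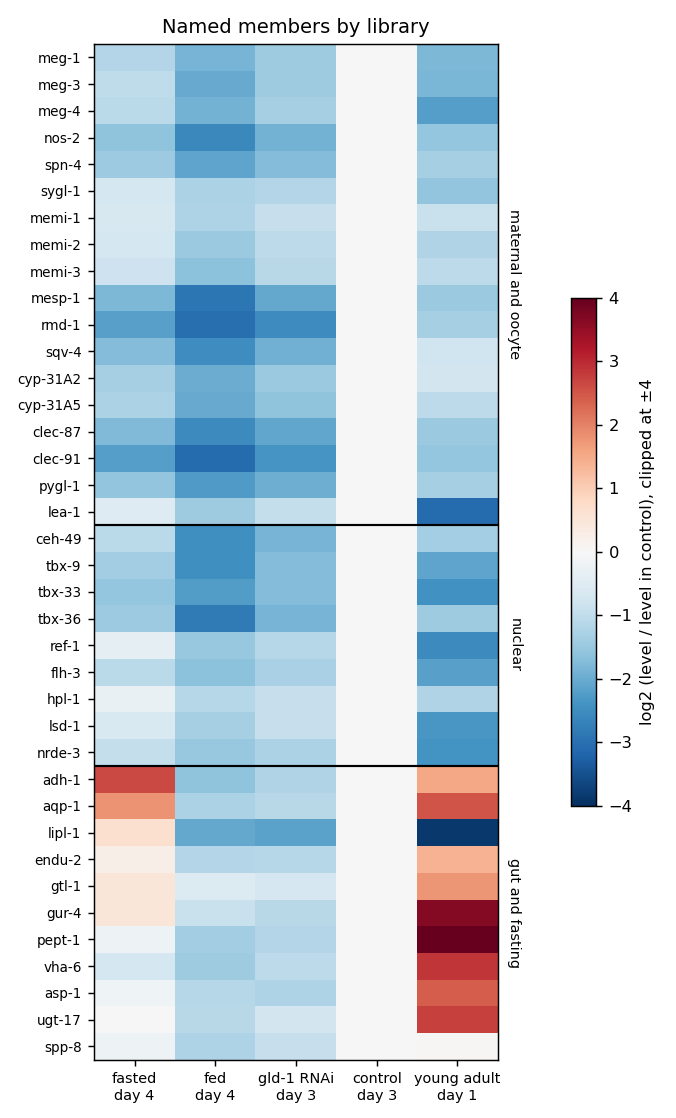
Log2 of the level over the control level for named members (rows) in the 5 libraries (columns), with blue below and red above the control and values clipped at 4 on either side. Maternal and nuclear genes are lower in the fed than in the fasted library and in the control, several of them, such as lsd-1 and ref-1, are lowest in the young adult library, and adh-1, aqp-1 and lipl-1 are above the control in the fasted library.

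Some members act in signalling, for which no list was made, so they were not counted. mom-2, a Wnt ligand of the early embryo, was picked after its values were seen and had 2019 normalized reads in the fasted, 1305 in the fed, 1659 in the gld-1 RNAi, 4225 in the control and 1652 in the young adult library. dsl-2, a member of the Delta-type Notch ligand family, had 95.9 normalized reads in the fasted, 58.1 in the fed, 62.9 in the gld-1 RNAi, 474 in the control and 6.64 in the young adult library. Its log2 fold of control over young adult was 5.96, the highest of the 210 members, from 6 reads in the young adult library. skr-15, an adaptor of SCF ubiquitin ligases, was the 1 member of 38 measured genes of ubiquitin ligation and proteolysis, and had 257 normalized reads in the fasted, 141 in the fed, 179 in the gld-1 RNAi, 415 in the control and 49.8 in the young adult library. It was 3.03 higher in the control than in the young adult library on the log2 scale.

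A smaller group of members was known from the intestine and from fasting. Of 21 measured intestine markers 16 were lower in gld-1 RNAi, 4 were higher in fasted animals and the same 4, pept-1, asp-1, vha-6 and gtl-1, were members. The other 17 measured markers were not higher in fasted animals by 1.5-fold, and the median of all 21 was -0.10 for fasted over fed. pept-1, the peptide transporter of the gut, had 137 normalized reads in the fasted, 59.8 in the fed, 69.8 in the gld-1 RNAi, 157 in the control and 2559 in the young adult library. asp-1, an aspartyl protease of the gut, had 5348 normalized reads in the fasted, 2734 in the fed, 2577 in the gld-1 RNAi, 6027 in the control and 32162 in the young adult library. vha-6, a proton pump subunit of the gut surface, had 746 normalized reads in the fasted, 448 in the fed, 587 in the gld-1 RNAi, 1212 in the control and 8814 in the young adult library. gtl-1, a cation channel of the TRPM family, had 420.4 normalized reads in the fasted, 204 in the fed, 188 in the gld-1 RNAi, 301 in the control and 1019.7 in the young adult library. In each of these 4 genes the young adult library was the highest of the 5. The 24 listed markers summed to 0.103% of the reads outside ribosomal RNA in the fasted, 0.118% in the fed, 0.110% in the gld-1 RNAi, 0.175% in the control and 0.548% in the young adult library. let-767 was the 1 marker with no read in some library. The sum was thus lower in fasted than in fed animals, opposite to the 4 members.

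The 3 members with the largest fold of fasted over fed, adh-1, aqp-1 and lipl-1, stood above the control in fasted animals. In all, 8 of the 210 members stood above the control in fasted animals, among them also endu-2, gur-4, gtl-1 and F43C11.7. Some other members with a large fold did not. fbxc-32 had a log2 fold of 1.53 for fasted over fed and of -1.67 for fasted over control, and col-135 had -0.85 for fasted over control. adh-1, an alcohol dehydrogenase, had 3241 normalized reads in the fasted, 170.2 in the fed, 228 in the gld-1 RNAi, 525 in the control and 1533 in the young adult library. Its log2 fold was 4.27 for fasted over fed (4.07 to 4.49) and 3.80 for fasted over gld-1 RNAi. aqp-1, a channel for water and glycerol, had 579 normalized reads in the fasted, 68.1 in the fed, 76.7 in the gld-1 RNAi, 165.1 in the control and 945 in the young adult library. lipl-1, a lysosomal acid lipase that breaks down fat in fasted worms, had 174 normalized reads in the fasted, 27.4 in the fed, 25.3 in the gld-1 RNAi, 112.7 in the control and 7.74 in the young adult library, from 33 reads in the fed and 33 in the gld-1 RNAi library. In all 3 genes the fasted library stood far above both the fed and the gld-1 RNAi library. The log2 fold of fed over gld-1 RNAi was -0.44 in adh-1 (-0.71 to -0.18), -0.19 in aqp-1 (-0.63 to 0.24) and 0.09 in lipl-1 (-0.65 to 0.83), so the counting interval excluded 0 in adh-1 alone. adh-1, aqp-1, lipl-1 and F43C11.7 were the 4 members at least 1.5-fold higher in fasted animals than in the control. endu-2, an endoribonuclease, had 257 normalized reads in the fasted, 97.2 in the fed, 98.9 in the gld-1 RNAi, 218 in the control and 577 in the young adult library, and gur-4, of the gustatory receptor family, had 199.8 normalized reads in the fasted, 77.2 in the fed, 67.5 in the gld-1 RNAi, 144 in the control and 1824 in the young adult library. spp-8, of the saposin-like antimicrobial family, had 521 normalized reads in the fasted, 257 in the fed, 314 in the gld-1 RNAi, 598 in the control and 623 in the young adult library. asp-1, spp-8 and clec-87 were the 3 members of 49 measured immune and antimicrobial genes, of which 23 were lower in gld-1 RNAi and 8 higher in fasted animals.

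The young adult library, which the rule did not use, divided the members. In the control 177 of 210 members were at least 1.5-fold higher than in young adults, against 33.6% of all genes, and 19 were at least 1.5-fold lower, against 33% of all genes. The median log2 fold of control over young adult was 1.46 in members and 0.16 in all genes. The control library itself was used by the rule. Marker lists of other tissues also differed between these 2 libraries. Of the reads outside ribosomal RNA, body wall muscle markers took 2.01% in the young adult and 0.361% in the control library, and hypodermis markers 2.12% and 0.344%. Neuron markers took 0.0941% and 0.0826%. A list of 13 oocyte markers, all genes that the rule leaves out by name, went the other way with 0.807% and 2.28%. In members, the gld-1 RNAi library differed less from the young adult library than the control did. Measured in that comparison were 205 members, and 43 of them were at least 1.5-fold higher in gld-1 RNAi (31.6% of all genes) and 51 were lower (30.7% of all genes), with a median of -0.04 beside 0.12 for all genes. This median turned to 0.20 and 0.073 under scaling to upper quartiles of each library's own genes and of genes with a read in either library, where that of all genes was 0.36 and 0.23. Among the 5 libraries 187 members were highest in the control, 20 in the young adult and 3 in the fasted library, and 149 were lowest in the fed, 53 in the young adult and 8 in the gld-1 RNAi library. The rule set the control above gld-1 RNAi and fasted above fed, so these ranks follow in large part from it. They were not counted over all genes.

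The 19 members that were lower in the control than in young adults were set apart after their values were seen, so the split is a description. They include pept-1, vha-6, asp-1, gtl-1, aqp-1, adh-1, gur-4, endu-2, ugt-17, ugt-23, clec-47 and col-135. Their median log2 fold of fasted over gld-1 RNAi was 0.82, and 13 of the 19 were at least 1.5-fold higher in fasted animals. In the 177 members that were higher in the control the median was 0.33, and 19 were at least 1.5-fold higher. Against the control, the fasted library had a median of -0.24 in the 19 and -1.096 in the 177. The 14 members within 1.5-fold of the young adult library had medians of 0.44 for fasted over gld-1 RNAi and -0.64 for fasted over control. ugt-17, a UDP-glucuronosyltransferase, shows the first kind with 89.5 normalized reads in the fasted, 40.7 in the fed, 52.9 in the gld-1 RNAi, 88.2 in the control and 583 in the young adult library. lipl-1 belongs to the 177 by its young adult level but has the third highest fold of fasted over gld-1 RNAi of all members.

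**Figure D4:**
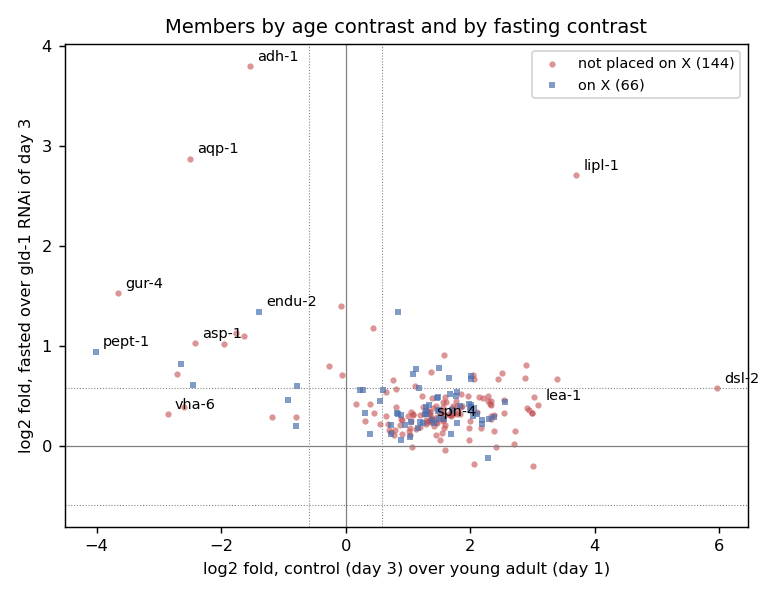
Log2 fold of fasted over gld-1 RNAi (vertical axis) against log2 fold of control over young adult (horizontal axis) for each member, on chromosome X (blue squares) or not (red circles), with dotted lines at 1.5-fold. Most members lie to the right at small vertical values, while adh-1, aqp-1, gur-4, endu-2, asp-1 and pept-1 lie to the left and high, and lipl-1 is alone at the upper right. The median of the vertical values is 0.34 and turns to -0.01 under scaling to the upper quartile of each library's own genes.

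The 17 genes left out by name met the same 2 limits as the members, so their folds in those comparisons were fixed by the rule. Of 55 measured genes with such a name the other 38 missed at least 1 limit, and the 55 had medians of -1.04 for gld-1 RNAi over control and 0.35 for fasted over fed. The 17 genes left out by name had medians of -1.63 for gld-1 RNAi over control, 0.82 for fasted over fed, -0.38 for fed over gld-1 RNAi and 0.32 for fasted over gld-1 RNAi. The members had -1.36, 0.82, -0.46 and 0.34 in the same comparisons. rme-2, the yolk receptor of the oocyte, had 9681 normalized reads in the fasted, 4305 in the fed, 7543 in the gld-1 RNAi, 30956 in the control and 12315 in the young adult library. puf-5, a Pumilio-family repressor of oocytes, had 5577 normalized reads in the fasted, 2678 in the fed, 4457 in the gld-1 RNAi, 25664 in the control and 9631 in the young adult library. A list of 13 oocyte markers was made of genes that the rule leaves out by name, none at 0 reads in a library. It summed to 0.964% of the reads outside ribosomal RNA in the fasted, 0.538% in the fed, 0.749% in the gld-1 RNAi, 2.28% in the control and 0.807% in the young adult library. Those of the 13 that are among the 17 met both limits, so this order is no separate evidence. The part of oocyte number in the members' levels was not tested.

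Lists with no member were those where the background share of 2.35% would itself give few members or none, and nothing is read from a single one of them. None of the members was among the measured genes on the lists of polarity and spindle in the embryo (82), DNA replication and repair (48) or meiosis and synapsis (48). The lists of membrane traffic (48), autophagy (36) and heat shock and protein folding (41) held none either. The last of these lists did not include sip-1, a small heat shock protein that is a member. DNA replication had 14 genes lower in gld-1 RNAi, and meiosis 3. The markers of gonadal sheath and spermatheca (25), body wall muscle (33), neurons (27), hypodermis (18), pharynx (9) and sperm (8) held no member either. In all, 24 of the 210 members stood in 1 or more of 22 lists. The lists were written with earlier results of these data known.

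The members lay more often on chromosome X than other measured genes. Of 209 members with a known chromosome 66 were on X, a share of 31.6%, beside 12.35% of 8821 measured genes. The share was 16.39% among 1257 genes lower in gld-1 RNAi but not higher in fasted animals, and 19.2% among 125 genes with the reverse. Chromosome III held 6.22% of the members and 18.7% of the measured genes, and chromosome I 8.61% and 19.1%. Neighbouring copies and shared regulation make genes no independent draws, so no test was made. Among the 17 genes left out by name 0 were on X, and with them the share on X was 29.2%. For members with the whole counting interval past the limit it was 25%. Members on X had a median log2 fold of gld-1 RNAi over control of -1.19, and those on autosomes -1.52. For fasted over fed the medians were 0.81 on X and 0.82 on autosomes. All measured genes on X had a median of -0.14 for fed over gld-1 RNAi and of 0.08 for fasted over fed, beside 0.00 and 0.03 on autosomes.

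**Figure D5:**
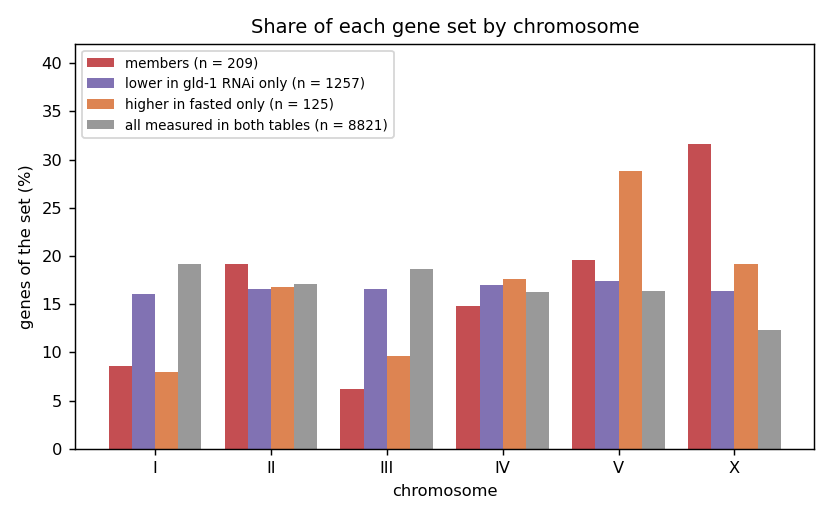
Share of genes on each chromosome (bars, percent) for the members, the genes lower in gld-1 RNAi only, the genes higher in fasted only, and all genes measured in both tables. On X the members reach 31.6% and the measured genes 12.35%, while on I and III the members are below the measured genes.

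Some members were neighbours. In the order of measured genes along the chromosomes, 51 of 208 members (24.5%) stood next to another member, in 21 runs. The same share was not computed for any other set of genes, so nothing is read from this count. The longest was K01G12.3, F02H6.2, F02H6.3, F02H6.4 and sqrd-1 on chromosome IV. F02H6.4, annotated as a pseudogene, had 184 normalized reads in the fasted, 109 in the fed, 143 in the gld-1 RNAi, 1388 in the control and 174 in the young adult library. Its log2 fold of -3.21 for gld-1 RNAi over control was the lowest of the members. On chromosome V a run held F14H3.3, F14H3.4, F14H3.5 and F14H3.6, and another C50E3.11, C50E3.12 and C50E3.13. F14H3.6 had 2429 normalized reads in the fasted, 1160.2 in the fed, 1699 in the gld-1 RNAi, 5990.2 in the control and 1356 in the young adult library, far more than its neighbours. memi-2 stood beside cyp-31A5 and memi-3 beside cyp-31A2, a pair of neighbourhoods that look alike, so reads may be shared between them. Overlapping genes cannot be told apart without strand, which the sources used here do not give. The coding sequence of members had a median of 1051.5 bases beside 1104 bases in genes lower in gld-1 RNAi only, 1248 bases in all measured genes and 1644 bases in the genes left out by name.

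Some named members with large differences in both comparisons belong to none of these groups. try-1, of the trypsin-like protease family, had 376 normalized reads in the fasted, 182 in the fed, 297 in the gld-1 RNAi, 1703 in the control and 533 in the young adult library. spsb-2, a SPRY domain and SOCS box gene, had 866 normalized reads in the fasted, 394 in the fed, 645 in the gld-1 RNAi, 2855 in the control and 866 in the young adult library. pzf-1, a zinc finger gene, had 433 normalized reads in the fasted, 178 in the fed, 267 in the gld-1 RNAi, 825 in the control and 150.4 in the young adult library. ent-5, of the equilibrative nucleoside transporter family, had 270.1 normalized reads in the fasted, 122.1 in the fed, 224 in the gld-1 RNAi, 693 in the control and 301 in the young adult library. try-1 was at 22.1% and spsb-2 at 30.3% of the control level in fasted animals, while pzf-1 was at 52.5%. EEED8.3, which has no gene name, had 574 normalized reads in the fasted, 299 in the fed, 467 in the gld-1 RNAi, 2647 in the control and 901 in the young adult library, and was with F02H6.4, H04M03.3, clec-91 and dsl-2 among the members furthest below the control in fasted animals. tag-276 had 99.1 normalized reads in the fasted, 64.8 in the fed, 60.6 in the gld-1 RNAi, 149 in the control and 13.3 in the young adult library, a level that was low in young adults.

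The limits of the rule cut through a continuous range. Just inside the limit on gld-1 RNAi over control were gtl-1 at -0.62 and athp-3 at -0.67, and just outside were alh-5 and aqp-8, both at -0.58. Just inside the limit on fasted over fed were nrde-3 and sym-3, both at 0.59, and just outside were efr-3 and nep-1, both at 0.58. A limit of 0.4 gave 453 genes and a 2-fold limit gave 55. Among the 55, fbxc-32, an F-box gene picked after its values were seen, had 150.2 normalized reads in the fasted, 52.3 in the fed, 78.2 in the gld-1 RNAi, 480.5 in the control and 160.4 in the young adult library. H04M03.3, a gene without a name that is also among the 55, had 224 normalized reads in the fasted, 99.7 in the fed, 182 in the gld-1 RNAi, 1386 in the control and 274 in the young adult library.

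Adjusted p-values were taken from the authors' deposited table of each pair. They rest on 1 library a group, so they do not measure variation between pools of animals. The members were selected on the folds of the gld-1 RNAi over control and fasted over fed tables. Each of the other tables shares at least 1 library with these, so the selection can favour calls there too. The shares of all genes called also include genes below the minimum mean that members had to reach, so they are no like background. They are given as a description, and nothing is read from the difference in any table. At an adjusted p below 0.1 in the authors' deposited table, 8 members were lower in gld-1 RNAi than in the control, with 0.0758% of all genes called lower. Among these 8 the authors' deposited table gave adjusted p = 0.0759 to rmd-1 and adjusted p = 0.00802 to F02H6.4. For fasted over fed the authors' deposited table called 5 members higher, with 0.115% of all genes called higher. They were adh-1 with adjusted p = 6.75e-25, aqp-1 with 1.54e-06, lipl-1 with 0.0125, mrp-4 with 0.0621 and lea-1 with 0.0823 in the authors' deposited table. No member was called in both of these 2 tables. For fed over gld-1 RNAi the authors' deposited table called 13 members lower, with 0.165% of all genes called lower. Among these 13 the authors' deposited table gave adjusted p = 0.000185 to mesp-1 and adjusted p = 0.000955 to gfat-2. For fasted over gld-1 RNAi the authors' deposited table called 4 members higher, adh-1, aqp-1, lipl-1 and asp-1, with 0.0857% of all genes called higher. For gld-1 RNAi over young adult the authors' deposited table called 2 members lower, pept-1 and Y16B4A.2, with 0.808% of all genes called lower.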

How the data were processed

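RNA of whole animals was measured in 5 libraries, 1 per group, and groups follow the sample titles. Per the submitters' processing notes, reads passed through TopHat, HTSeq and DESeq, without versions given. No coordinates are printed, since the sources used here name no genome build; strandedness and any poly(A) step are also unknown here. Each of 5 deposited tables compares 1 pair of libraries. It gives the authors' normalized signal per gene (gene counts over a size factor of that pair), a log2 fold and an adjusted p-value, as its header says. The deposited log2 folds were not used. Whole reads were recovered from the signal steps (100% of values whole within 0.1 read). Reads of a library found in more than 1 table were equal for each gene (0 genes differed), which fixed the columns. Comparisons with the gld-1 RNAi library share its values.

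Levels over 5 libraries are recovered reads over median-of-ratios size factors. Folds are log2 of values plus 1, which understates changes of low genes; folds of control over young adult and of fasted or fed over control use the 5-library levels. Intervals of read ratios are exact (Clopper-Pearson, 95%) and cover counting error only. They reached a median of 0.18 to either side for gld-1 RNAi over control and of 0.28 for fasted over fed. A single library per group leaves a count model no residual degrees of freedom, so none was fitted, and p-values are the authors' alone. Names, biotypes, chromosomes and lengths came from Ensembl release 115 (WBcel235) and RefSeq locus tags, which matched 44936 of 45461 identifiers.

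The members and all 22 gene lists (995 of 1020 entries matched) were chosen with earlier results of these data known. Named members were 60: the 12 with a gene name, a mean of at least 100 and the largest smaller one of both folds, up to 4 per list, 2 on either side of each limit, the 5 highest and 5 lowest in control over young adult and in fasted over control, and up to 3 per name family with at least 3 members. Other genes given with levels, apart from gld-1, were picked after their values were seen, also where this is not said beside them. Promoter motifs and protein lengths, which had been planned, were not analysed here, and coding length was used instead. Alternatives were scalings to equal totals, to totals without ribosomal RNA and to upper quartiles, other pseudocounts, minimum means and limits, and whole intervals past the limit. Python 3.11.15, pandas 2.3.3, scipy 1.17.1 and matplotlib 3.10.9 were used. The selection and the counting intervals were tested on simulated reads. The simulated folds lay well past the limit, so the test does not cover members near it.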

Additional observations from a re-analysis of the deposited data

How the results depend on the processing

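The number of members depended on the scale and the limits. It was 210 as reported and 51 with upper quartiles of each library's own genes above 0, and the cause was not tested. It was 318 and 118 at minimum means of 10 and 200, 55 at a 2-fold limit and 453 at a limit of 0.4, and 48.095% of the 210 had the whole counting interval past both limits. Scaling to totals (220), totals without ribosomal RNA (210), pseudocounts of 10 (198) and 0.1 (212), and upper quartiles of genes with a read in either library (217) stayed within 1.5 times. Apart from the own-gene upper quartiles, 189 members met the rule under every scaling and pseudocount. For gld-1 RNAi over young adult the median of -0.04 was -0.46 with equal totals (all genes -0.30), and turned to 0.20 and 0.073 with upper quartiles of own genes and of genes with a read in either library (all genes 0.36 and 0.23). For fasted over gld-1 RNAi it turned to -0.011 with own-gene upper quartiles (all genes -0.33). For control over young adult it was 0.96 with totals and 1.23 with own-gene upper quartiles, where all genes had -0.34 and -0.07. For fasted over control it was -0.78 with upper quartiles of genes with a read in either library, where all genes had 0.08. The share on X was 25% with whole intervals past the limit and 26.3% to 31.5% under the other alternatives. Of 600 recomputed folds of named genes 0 changed sign, and 139 moved by more than their counting interval allows. No paired analysis was possible because each group has 1 library, and for the same reason no replicate could be left out. Members with few reads, such as lipl-1 and dsl-2, have wide intervals. The upper quartiles of genes with a read in either library, the minimum of 100 reads and the share on X with names kept or with whole intervals were added after seeing the data.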

Other observations

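Further members of known biochemical role were read after the values were seen and are given as levels. acs-13, of the acyl-CoA synthetase family, had 7837 normalized reads in the fasted, 4833 in the fed, 6154 in the gld-1 RNAi, 16506 in the control and 6930.2 in the young adult library. acs-19, of the same family, had 7491 normalized reads in the fasted, 5073 in the fed, 5484 in the gld-1 RNAi, 11236 in the control and 8553 in the young adult library. gln-5, a glutamine synthetase, had 2505 normalized reads in the fasted, 1359.5 in the fed, 1871 in the gld-1 RNAi, 7350.4 in the control and 2678 in the young adult library. tdc-1, the tyrosine decarboxylase that makes tyramine, had 3136 normalized reads in the fasted, 1782 in the fed, 2460.3 in the gld-1 RNAi, 7563 in the control and 2336 in the young adult library. kcc-1, a potassium and chloride cotransporter, had 1558 normalized reads in the fasted, 955 in the fed, 1246 in the gld-1 RNAi, 3124 in the control and 1562 in the young adult library. In all 5 genes the control was highest and the fed library lowest of the 4 libraries of day 3 and day 4.

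Some regulators on chromosome X that no list held were picked after their values were seen. set-12 had 109 normalized reads in the fasted, 65.6 in the fed, 66.7 in the gld-1 RNAi, 119.7 in the control and 28.8 in the young adult library. rgs-9 and rgs-11 are of the family that ends G protein signals. rgs-9 had 302 normalized reads in the fasted, 170.2 in the fed, 237 in the gld-1 RNAi, 596 in the control and 137 in the young adult library, and rgs-11 had 257 normalized reads in the fasted, 164 in the fed, 196 in the gld-1 RNAi, 478 in the control and 118 in the young adult library. fkh-4, of the forkhead family, had 149 normalized reads in the fasted, 90.5 in the fed, 159 in the gld-1 RNAi, 375 in the control and 76.3 in the young adult library, and was 1 of 6 members that were lower in the fasted than in the gld-1 RNAi library. clec-223 was the 1 member with a counting interval above 0 for fed over gld-1 RNAi, at a log2 fold of 0.53.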
